A study of Mus musculus with 2 samples.

Results

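The collagen chain genes of the mouse were followed in interdigital tissue of the hind limb at stage E13.5, on 1 array from wild-type B6 embryos and 1 array from embryos homozygous for Hammer toe, a mutant with webbed digits. A gene was included when a probe set of the array was annotated to it alone and its symbol was that of a numbered collagen alpha chain (Col, a type number, a chain number). This gave 42 collagen genes, read by 82 probe sets, among 18193 genes named alone by a probe set. They were divided by type number into cartilage collagens (types II, IX and XI, 6 genes), fibrillar collagens (types I, III and V, 6 genes), basement membrane collagens (type IV, 6 genes) and the remaining types (24 genes). The tissue was cut from the regions labelled ID2 and ID3, and 250 ng of total RNA was labelled with biotin for each sample. The series' design speaks of 15 embryos per genotype, as 3 sets of 5 littermates, but each genotype is represented by a single array, and how the embryos were combined on it is not given. Only the wild type carries a strain name, so strain and Hammer toe genotype cannot be told apart. With 1 array per genotype no value has an error between samples and no test was possible, so every difference below is a difference between these 2 arrays.

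Collagens are proteins of the extracellular matrix in which chains carrying a glycine at regular intervals wind around each other into a helix. Fibrillar chains are secreted as procollagens, trimmed and crosslinked into fibrils, while type IV chains form the sheet-like network of basement membranes, and fibril-associated types coat or link fibrils. In cartilage the fibrils are built of type II with type XI and are coated with type IX, whereas loose mesenchyme, dermis, tendon and bone use types I, III and V. In the limb at this stage the digits are condensing cartilage rods, and the tissue between them is mesenchyme covered by surface ectoderm. Some types, such as II, III, VII and XVII, are trimers of a single gene's chain, while others, such as I, IV, VI, IX and XI, combine chains of different genes, whose values can be read side by side.

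Intensities are on the linear scale that MAS5 gives, and where a gene has several probe sets the brightest by mean stands for it. Where a pair of intensities is given, the wild-type value comes first and the Hammer toe value second. Values at or below an intensity of 78.1, the median of all values that are not controls, were taken as too dim to order, and a gene is called measured here if at least 1 of its values exceeded that floor. Ratios are Hammer toe over wild type on the log2 scale, with values under the floor raised to it, so that a gene with 1 array under the floor has only a lower bound ("at least"). Of all named genes, 11621 were measured, with a median log2 ratio of 0.01. Probe sets of the same gene differed with an SD of 0.21 on the log2 scale over 5134 genes, and with an SD of 0.21 among the collagens themselves. The ratio that held 95% of genes was 1.60-fold where the brighter array read up to 200, 1.24-fold above 1000, and 1.45-fold in between. These ranges describe the spread of genes across the 2 arrays and leave out the variation between litters. The interdigital markers were present: all 15 listed genes of limb and interdigital mesenchyme were measured, with Hoxd13 at 17291 and 15779, Msx1 at 13145 and 11376, and Aldh1a2 at 13129 and 11474.

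The cartilage collagens were lower on the Hammer toe array and most other collagens were level with wild type or slightly higher. Of the 42 collagen genes, 35 were measured, 12 of them lower in Hammer toe and 23 higher, where 48.3% of all measured genes were lower and 51.7% higher. Their median log2 ratio was 0.10. All 6 cartilage collagens were lower, with a median log2 ratio of -0.65, a 1.57-fold difference. The 29 measured collagens of the other classes had a median of 0.16, with 6 lower and 23 higher, so that the medians of the cartilage and the remaining collagens lay 0.81 apart on the log2 scale. At 1.5-fold or more, 4 collagens were lower, all from cartilage (Col9a3, Col9a2, Col2a1 and Col9a1), and 1 was higher (Col17a1), against 1.39% of all measured genes lower and 2.17% higher by that size. No collagen reached 2-fold on the probe set that stands for it, a size reached by 0.112% of all measured genes in the lower and 0.258% in the higher direction, though the second probe set of Col9a3 did. Outside the range that held 95% of genes of like intensity lay 6 collagens on the lower side, namely 5 cartilage collagens and Col25a1, and Col17a1 on the higher side. Of all measured genes, 2.07% lay outside on the lower side and 2.93% on the higher.

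**Figure D1:**
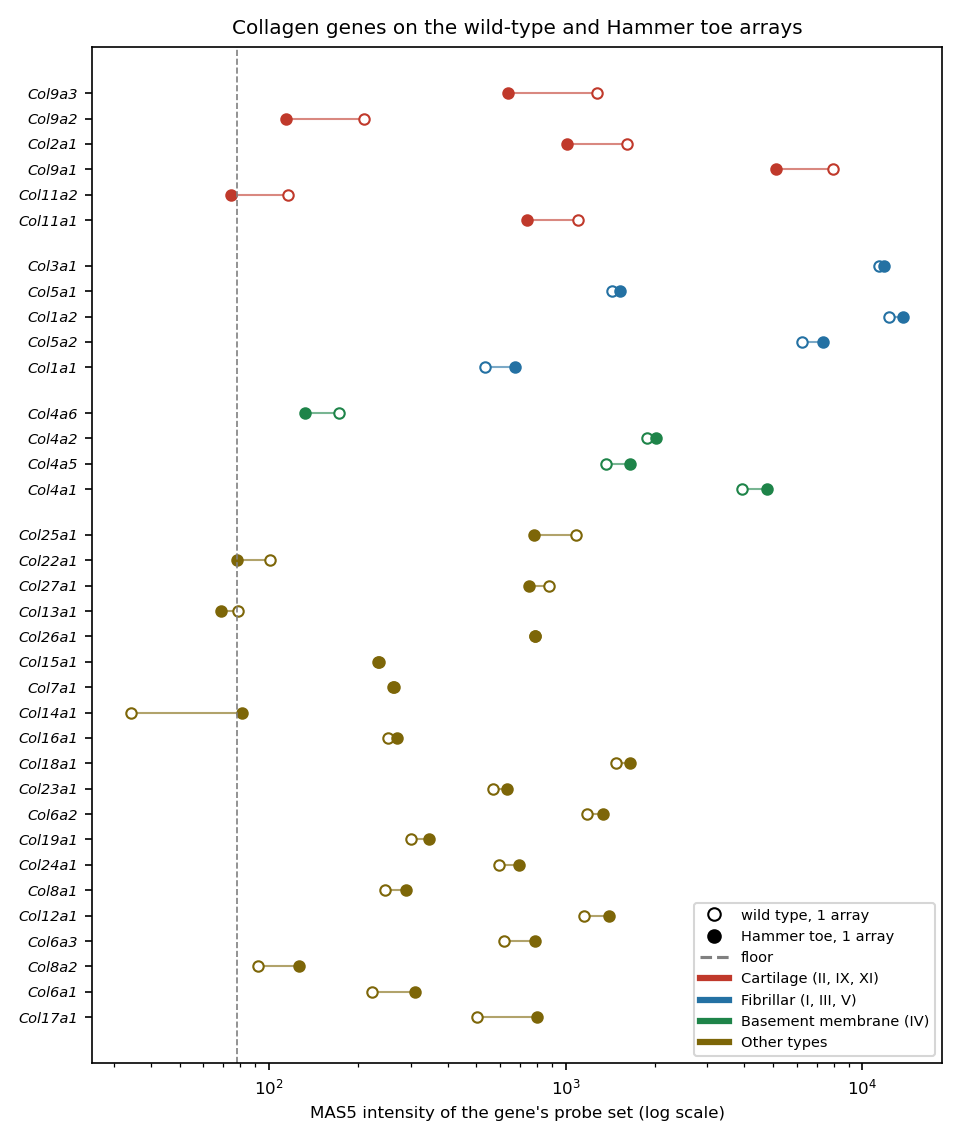
MAS5 intensity (log axis) of each of the 35 measured collagen genes on the wild-type array (open circles) and the Hammer toe array (filled circles), coloured by class and ordered by ratio within it; the dashed line is the floor at 78.1. In all 6 cartilage collagens the filled circle lies to the left, and in all 5 measured fibrillar collagens it lies to the right by a smaller distance.

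Type IX collagen, which coats the type II fibril of cartilage and projects from it, showed the largest differences. Col9a3 read 1273 on the wild-type array against 641 on the Hammer toe array, 1.99-fold lower. Counted from the lowest ratio, it was number 17 of the 11621 measured genes. Col9a2 read 209 and 114, 1.84-fold lower. Col9a1 read 7936 and 5106, 1.55-fold lower. All of the type IX genes were thus lower by more than the 95% range of genes of their intensity. The log2 ratios of the chains were -0.99, -0.88 and -0.64, a spread of the same order as the SD of 0.21 between probe sets of one gene. The second probe sets of Col9a3 (1074 and 531) and Col9a1 (1374 and 886) gave nearly the same log2 ratios as the first, -1.02 and -0.63. A further probe set of Col9a3 was too dim on both arrays, and Col9a2 has a single probe set. With a pseudocount in place of the floor, which shrinks the ratios of dim genes, Col9a2 was at -0.58, just short of 1.5-fold.

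Col2a1, the gene of the main fibril collagen of cartilage, read 1608 on the wild-type array against 1010 on the Hammer toe array, 1.59-fold lower, on its only probe set, which is of the _a_at type. Type XI collagen sits in the core of the type II fibril and limits its width. Its gene Col11a1 read 1096 and 741, 1.48-fold lower, and on a second probe set 939 and 822, a log2 ratio of -0.19. Col11a2 read 116 and 74.4, the latter below the floor, and was at least 1.48-fold lower, or, when a pseudocount replaced the floor, at a log2 ratio of -0.34. The type XI trimer also takes up a chain made from Col2a1, so that all of its chains read lower, with log2 ratios of -0.56, -0.57 (a bound) and -0.67. In whole tissue, fewer cells of a type and less RNA per cell cannot be told apart. Col10a1, the collagen of hypertrophic cartilage, was under the floor on both arrays, as was Ihh, a ligand of prehypertrophic cartilage.

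The promoter windows of Col9a1 and Col9a2 are shown because these genes were lower together and because Col9a1 has a pair of annotated start sites. The windows run from 250 bases before to 50 bases after the annotated start and come from RefSeq on GRCm38.p6, the array values carrying no coordinates. Capitals mark GGGCGG (the GC box bound by Sp-family factors), TATAAA or CCAAT, and also AACAAT or AACAAAG (letters that SOX factors can bind), searched on both strands. The upstream start of Col9a1 is the one known for the long form made in cartilage, and the downstream start for the short form known from the eye.
Col9a1, upstream start, chr1:24177360-24177659, plus strand: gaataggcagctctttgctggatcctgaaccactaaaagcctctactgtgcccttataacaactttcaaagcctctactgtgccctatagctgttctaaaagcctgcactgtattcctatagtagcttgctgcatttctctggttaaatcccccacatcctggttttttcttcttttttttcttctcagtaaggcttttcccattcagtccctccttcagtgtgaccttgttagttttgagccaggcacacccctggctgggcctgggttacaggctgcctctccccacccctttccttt
Col9a1, downstream start, chr1:24194953-24195252, plus strand: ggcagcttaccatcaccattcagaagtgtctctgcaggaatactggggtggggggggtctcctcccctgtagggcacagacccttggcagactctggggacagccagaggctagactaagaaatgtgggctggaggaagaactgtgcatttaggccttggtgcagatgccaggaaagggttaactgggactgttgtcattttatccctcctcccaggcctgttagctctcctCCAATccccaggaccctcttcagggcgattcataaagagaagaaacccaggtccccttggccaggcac
Col9a2, chr4:121039316-121039615, plus strand: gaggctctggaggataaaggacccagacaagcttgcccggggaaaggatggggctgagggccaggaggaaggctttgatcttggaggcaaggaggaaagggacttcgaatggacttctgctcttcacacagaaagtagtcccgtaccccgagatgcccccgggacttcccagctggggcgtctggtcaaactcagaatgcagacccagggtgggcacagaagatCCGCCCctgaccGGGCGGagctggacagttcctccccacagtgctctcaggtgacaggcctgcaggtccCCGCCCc
The upstream Col9a1 window held none of the searched letters and the downstream one held CCAAT alone. The Col9a2 window held 3 GC boxes, of which 1 lies after the start. Across 32851 windows of 300 bases, 35.7% held a GC box, 37.4% CCAAT, 13.6% TATAAA, 10.7% AACAAT and 5.85% AACAAAG. The deposited values do not say from which start of Col9a1 the RNA was made.

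The fibrillar collagens of loose connective tissue did not share the direction of the cartilage collagens. All 5 measured genes were higher in Hammer toe, with a median log2 ratio of 0.16 and a range of 0.06 to 0.33, none outside the 95% range of genes of their intensity. Type I collagen is the main fibril of skin, tendon and bone. Its gene Col1a2 read 12265 on the wild-type array against 13736 on the Hammer toe array, 1.12-fold higher, with its other probe sets at log2 ratios of 0.13 and 0.06. Col1a1 read 534 and 672, 1.26-fold higher, while its second probe set read 418 and 347, a log2 ratio of -0.27. The probe sets of Col1a1 thus opposed each other, and their mean log2 ratio was 0.03. Col3a1, whose product forms fibrils with type I in soft tissue, read 11381 and 11854, 1.04-fold higher, and its second probe set was at 0.19. Type V collagen sits inside type I fibrils and sets their width. Col5a2 read 6239 and 7369, 1.18-fold higher, with a second probe set at 0.46. Col5a1 read 1428 and 1529, 1.07-fold higher, with other probe sets at 0.02 and 0.64, the latter at intensities of 116 and 181. Col5a3 was under the floor on both arrays. Apart from Col1a1, every measured probe set of the fibrillar genes was higher in Hammer toe.

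**Figure D2:**
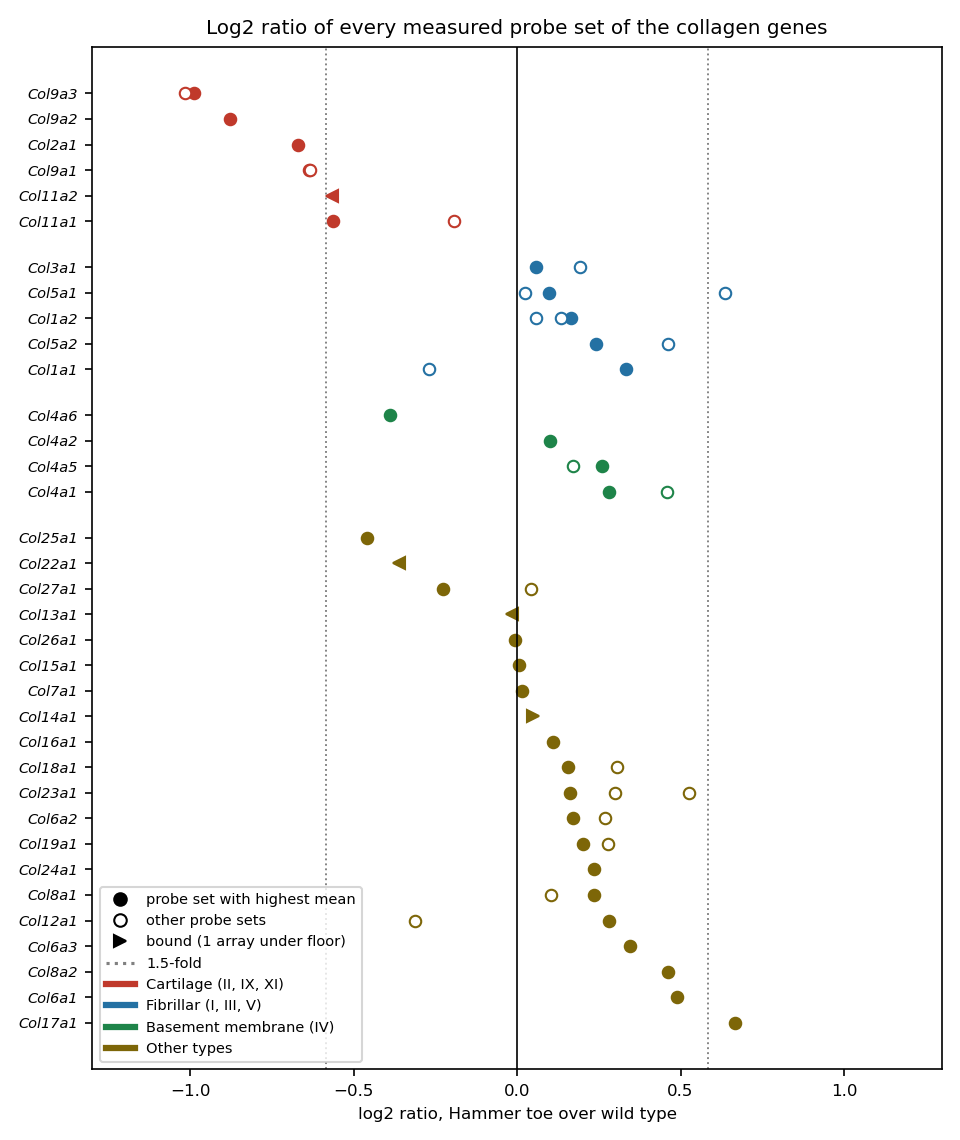
Log2 ratio, Hammer toe over wild type, of each of the 55 measured probe sets of the collagen genes, by gene and class. Filled symbols are the probe set used for the gene, open symbols its other probe sets, triangles bounds with 1 array under the floor, and dotted lines 1.5-fold. Every cartilage probe set lies left of 0, and Col1a1, Col12a1 and Col27a1 have probe sets on both sides.

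Among the type IV genes, which build the basement membrane under the ectoderm and around vessels, 3 of 4 measured members were slightly higher. The median log2 ratio was 0.18. Col4a1 and Col4a2 encode the chains of the common basement membrane trimer. Col4a1 read 3930 on the wild-type array against 4775 on the Hammer toe array, 1.22-fold higher, with a second probe set at a log2 ratio of 0.46. Col4a2 read 1873 and 2008, 1.07-fold higher. Col4a5 read 1372 and 1644, 1.20-fold higher, with a second probe set at 0.17. Its partner Col4a6, whose chain joins that of Col4a5 in epithelial basement membranes, read 172 and 132, 1.31-fold lower, within the 1.60-fold range of genes at that intensity. Its other probe set was too dim on both arrays. None of these ratios lay outside the 95% range of genes of their intensity. Col4a3 and Col4a4, known from the basement membranes of kidney and lung, were under the floor on both arrays.

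Type IV genes lie head to head in pairs, and their windows are shown because Col4a1 and Col4a2 read in the same direction and Col4a5 and Col4a6 in opposite directions. The RefSeq starts of Col4a1 and Col4a2 lie 21 bases apart, each inside the transcribed part of the other gene. The beginnings of these genes thus overlap, and their windows share 78 bases. The starts of Col4a5 and Col4a6 lie 1343 bases apart with a gap between the genes, and their windows share none. Capitals mark the same letters as above.
Col4a1, chr8:11312777-11313076, minus strand: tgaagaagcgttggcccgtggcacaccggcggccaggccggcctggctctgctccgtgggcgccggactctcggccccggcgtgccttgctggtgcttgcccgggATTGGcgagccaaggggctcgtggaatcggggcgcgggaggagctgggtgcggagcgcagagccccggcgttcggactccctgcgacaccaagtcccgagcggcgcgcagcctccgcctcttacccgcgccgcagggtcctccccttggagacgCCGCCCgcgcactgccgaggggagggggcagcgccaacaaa
Col4a2, chr8:11312555-11312854, plus strand: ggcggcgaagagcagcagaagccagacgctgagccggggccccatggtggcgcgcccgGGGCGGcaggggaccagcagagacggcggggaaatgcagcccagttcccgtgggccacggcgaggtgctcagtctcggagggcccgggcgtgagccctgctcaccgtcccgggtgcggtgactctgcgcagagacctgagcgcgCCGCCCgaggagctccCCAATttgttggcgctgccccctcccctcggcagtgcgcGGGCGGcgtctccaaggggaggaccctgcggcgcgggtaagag
Col4a5, chrX:141475169-141475468, plus strand: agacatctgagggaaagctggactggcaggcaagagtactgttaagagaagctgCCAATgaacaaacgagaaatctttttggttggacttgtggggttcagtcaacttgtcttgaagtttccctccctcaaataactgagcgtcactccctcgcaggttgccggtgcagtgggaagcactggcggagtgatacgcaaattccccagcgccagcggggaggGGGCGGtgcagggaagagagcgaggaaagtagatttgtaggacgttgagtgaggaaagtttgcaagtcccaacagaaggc
Col4a6, chrX:141474027-141474326, minus strand: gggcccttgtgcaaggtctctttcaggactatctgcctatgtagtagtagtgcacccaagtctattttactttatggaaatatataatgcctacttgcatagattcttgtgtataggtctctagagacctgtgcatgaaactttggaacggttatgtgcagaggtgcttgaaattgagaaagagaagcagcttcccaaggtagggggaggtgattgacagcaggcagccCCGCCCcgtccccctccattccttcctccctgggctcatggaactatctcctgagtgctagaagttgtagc
The Col4a1 and Col4a2 windows had GC contents of 74.0% and 73.7%, and both held CCAAT and a GC box. The Col4a1 window held 1 GC box and that of Col4a2 held 3. The box of Col4a1 lies in the shared bases and is the same site as the last box of Col4a2, read on the other strand. The Col4a5 and Col4a6 windows had GC contents of 52.7% and 48.3%, near the median of 52.7% over all windows, and each held 1 GC box, with CCAAT in the Col4a5 window alone.

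The 20 measured genes of the remaining types had a median log2 ratio of 0.16, with 15 higher and 5 lower. Col17a1, which encodes a transmembrane collagen of the hemidesmosomes that fix basal epithelial cells to the basement membrane, stood highest. It read 504 on the wild-type array against 799 on the Hammer toe array, 1.59-fold higher, on a single probe set of the _a_at type. The surface ectoderm markers were also higher: of 17 measured, 16 read higher and 1 lower, with a median log2 ratio of 0.39 and summed intensities of 15660 and 20336. Among the brightest, Dsp read 2692 and 3454, Perp 1927 and 2699, and Epcam 1517 and 2254, although another probe set of Epcam was at a log2 ratio of -0.71. The part of the ectoderm in the Col17a1 value was not tested. Col7a1, which forms the anchoring fibrils below the same epithelium, read 262 and 264 and was 1.01-fold higher. Col23a1, another transmembrane collagen, read 569 and 636, 1.12-fold higher, with other probe sets at log2 ratios of 0.30 and 0.53.

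Type VI collagen, a beaded-filament network around cells of connective tissue, was higher in each of its measured genes. Col6a1 read 222 and 311, 1.40-fold higher. Col6a3 read 618 and 786, 1.27-fold higher. Col6a2 read 1182 and 1331, 1.13-fold higher, with a second probe set at 0.27. The genes of its classical trimer therefore shared a direction, each within the 95% range of genes of its intensity. Col6a4 and Col6a5, whose chains can stand in for that of Col6a3, were under the floor on both arrays. The network-forming Col8a1 and Col8a2, known from vessels and the eye, read 246 and 290, 1.18-fold higher, and 91.7 and 126, 1.38-fold higher. Skeletal muscle markers were measured for 9 of 16 genes and read higher in 7, while Myf5, Myf6, Pax3 and Pax7 were too dim, with a median log2 ratio of 0.41 and summed intensities of 1343 and 1978, and their part in the type VI values was not tested.

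Of the fibril-associated types beside type IX, Col12a1, found along type I fibrils in dense connective tissue, read 1148 and 1396, 1.22-fold higher. Its second probe set read 274 and 221, a log2 ratio of -0.31, so that the mean of both was -0.02. Col19a1 read 300.1 and 345, 1.15-fold higher, with a second probe set at 0.28, and Col16a1 read 251 and 271, 1.08-fold higher. Col14a1 read 34.3 and 80.8, the former below the floor and the latter just above it. The floor holds its ratio to at least 1.03-fold, while without a floor its log2 ratio was 1.24. Col22a1, known from tissue junctions such as that of muscle and tendon, read 100.4 and 77.7, the latter under the floor, and was at least 1.29-fold lower. Col20a1 was under the floor on both arrays. Apart from type IX, then, no fibril-associated collagen reached 1.5-fold with the floor in place.

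Below wild type outside the cartilage class stood Col25a1, a transmembrane collagen known for its role in motor nerve entry into muscle. It read 1080 on the wild-type array against 785 on the Hammer toe array, 1.38-fold lower, where 95% of genes above 1000 lay within 1.24-fold. Col25a1 is outside only because its brighter value lies just above 1000, since from 200 to 1000 the range was 1.45-fold. Its other probe set was too dim on both arrays. Nerve and Schwann cell markers mostly read the other way: 6 of 7 measured were higher, with a median log2 ratio of 0.25 and summed intensities of 1709 and 1878. Among these 6, Sox10 read 27.3 and 78.1, barely past the floor, and carries no direction. The lower gene, Ngfr, read 569 and 433, with another probe set at 0.40. The part of nerve or muscle in the Col25a1 value was not tested. Col27a1, a fibrillar collagen of cartilage, read 880 and 752, 1.17-fold lower, but its second probe set, at 403 and 414, was 1.03-fold higher. Col24a1, the related fibrillar gene known from bone, read 594 and 698, 1.18-fold higher. The multiplexins, collagens of basement membrane zones that carry an antiangiogenic end fragment, read 1481 and 1649 for Col18a1, 1.11-fold higher, and 233.7 and 234.4 for Col15a1. The second probe set of Col18a1 was at 0.31. Endothelial markers, another source of basement membrane collagens, split evenly, 8 of 15 being higher and 7 lower around a median log2 ratio of 0.01. Col26a1 read 790.3 and 786.2. Col13a1 read 78.9 and 69.1, so its wild-type value barely passed the floor. The ratios of Col15a1 and Col26a1 were within 0.01 of 0, and their signs turned under quantile normalization, that of Col15a1 also under the lowess correction.

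**Figure D3:**
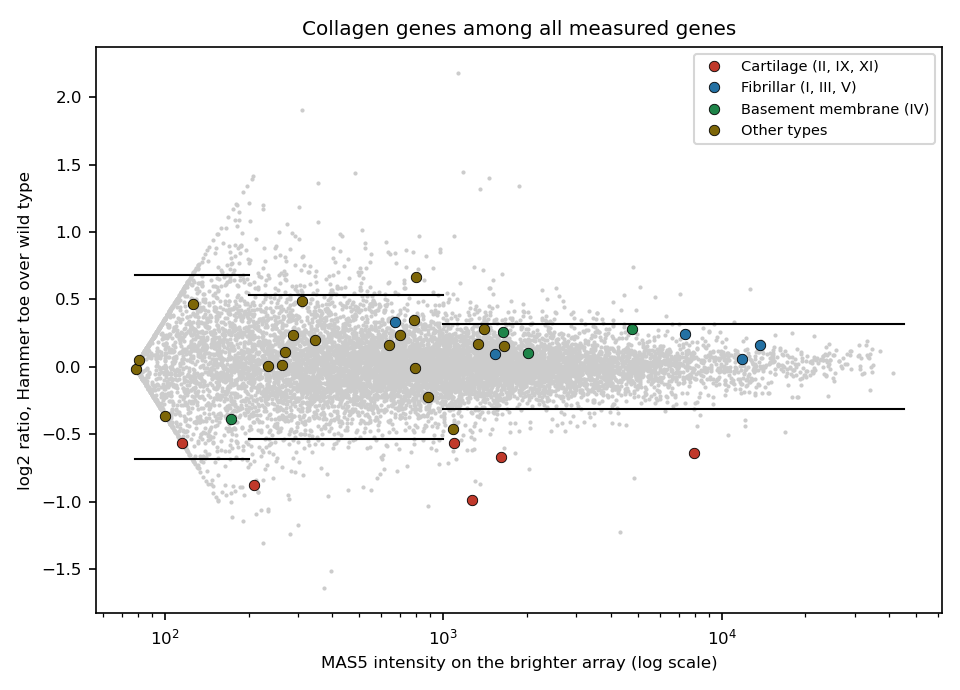
Log2 ratio, Hammer toe over wild type, against the intensity of the brighter array (log axis) for all 11621 measured genes (grey) and the collagens (coloured by class); black lines hold 95% of genes in each of 3 bands of intensity. Of the cartilage collagens, 5 lie below the lower line and Col11a2, a bound, lies above it, while Col17a1 is the only collagen above the upper line.

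Several measures that did not enter the choice of genes were set beside these differences. Among the 17 collagens for which 2 or more probe sets exceeded the floor in both genotypes, 14 had all of them on the same side, and 18 measured collagens rested on 1 measured probe set. The same share over all genes was not computed, so whether 14 of 17 is unusual cannot be said. The probe sets compared include the one that stands for the gene, and all were read on the same arrays. The widest disagreements were those of Col5a1 (0.61 on the log2 scale), Col1a1 (0.60) and Col12a1 (0.59), and the narrowest those of Col9a1 (0.002) and Col9a3 (0.03). RefSeq promoter windows were found for 33 of the 42 genes (36 windows). Of them, 61.1% held a GC box, against 35.7% of all windows, and the median GC content was 59.8% against 52.7%. A GC box stood in 3 of 5 cartilage, 3 of 4 fibrillar, 4 of 5 type IV and 12 of 22 other windows. The SOX-type letters AACAAT and AACAAAG each occurred in 1 of the 36 collagen windows, those of Col3a1 and Col20a1, against 10.7% and 5.85% of all windows. The 5 cartilage windows, those of Col9a1 (2), Col9a2, Col11a1 and Col11a2, held neither, and Col2a1 and Col9a3 had no window. This says only that these letters are not in the 300 bases examined.

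The genes that modify, fold, secrete and crosslink collagen stayed close to wild type. Of 38 listed, 34 had a probe set of their own and 29 were measured, 10 higher and 19 lower, none by 1.5-fold, with a median log2 ratio of -0.07 and a range of -0.25 to 0.31. Lox, whose enzyme starts the crosslinking of fibrils, read 622 on the wild-type array against 768 on the Hammer toe array, 1.24-fold higher. Mia3, which helps to load procollagen into transport carriers, read 1508 and 1269, 1.19-fold lower, with a second probe set at 0.24. Serpinh1, the procollagen chaperone, read 10973 and 10088. Of these, Serpinh1 was chosen for its role after its values were seen. Fkbp10, Adamts2, Adamts14 and Loxl2 were not analysed here. Only 4 of 10 listed collagen receptors were measured, 1 higher and 3 lower. Ddr1, an epithelial receptor kinase for collagen, read 2768 and 3545, 1.28-fold higher, but its probe sets ranged from -0.66 to 0.69. Itgb1, the common chain of the collagen-binding integrins, was at -0.11, with probe sets from -0.59 to 0.34.

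Basement membrane components other than collagens were mostly a little higher. Of 17 measured, 11 were higher and 6 lower, with a median log2 ratio of 0.12, against 0.18 for the type IV genes. Egfl6, a secreted matrix protein, read 175 and 295, 1.69-fold higher. Lama5, a laminin chain of epithelial basement membranes, read 292 and 460.1, 1.58-fold higher. Lamb3, a laminin chain of skin, read 121 and 69.0, the latter below the floor, and was at least 1.55-fold lower.

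Cartilage genes other than collagens were lower beside the cartilage collagens, though not in every member. Of 17 measured, 12 were lower and 5 higher, with a median log2 ratio of -0.29 and summed intensities of 12071 and 10044. Among the higher ones, Acan read 78.7 and 92.4, near the floor, and Pth1r read 2241 and 2296, both named after their values were seen. At 1.5-fold or more 4 were lower. Sox5, a partner of Sox9 in turning on cartilage matrix genes, read 387 and 199, 1.94-fold lower. Cytl1, a small secreted protein of cartilage, read 179 and 94.6, 1.89-fold lower. Fgfr3, a receptor of growing cartilage, read 964 and 586, 1.64-fold lower, with another probe set at 0.39. Sox9 read 1807 and 1161, 1.56-fold lower. These 4 genes were lower, as the cartilage collagens were, and how much digit cartilage each dissection held was not tested. Comp, Prg4, Snorc, Epyc, Chad, Ucma and Nkx3-2, which mark later or articular cartilage and its precursors, were too dim on both arrays. Of the bone markers, Sp7 alone was measured, at 126 and 141, and Ibsp, Alpl, Dmp1 and Ifitm5 were too dim. Of the tendon markers, 5 of 6 measured were higher, with a median log2 ratio of 0.19. Among these 5, Tnmd read 59.1 and 78.7, barely past the floor, and carries no direction. Of 14 macrophage markers 13 were higher, around a median of 0.40, and of 9 measured erythroid markers 7 were lower, around a median of -0.32. Among these 7, Gata1 read 82.7 and 50.2, near the floor and under it. The interdigital mesenchyme markers had a median of -0.17, with 11 lower and 4 higher. Hoxa13 was the lowest of them at -0.41, while Tbx2 and Tbx3 passed 1.5-fold in the other direction, at 0.70 and 0.80. Lhx9 was at -0.29 on the probe set that stands for it, and its 4 measured probe sets ran from -0.61 to -0.29. The lowest of these probe sets lay within the range of the cartilage collagens (-0.99 to -0.56), but the value that stands for Lhx9 did not.

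**Figure D4:**
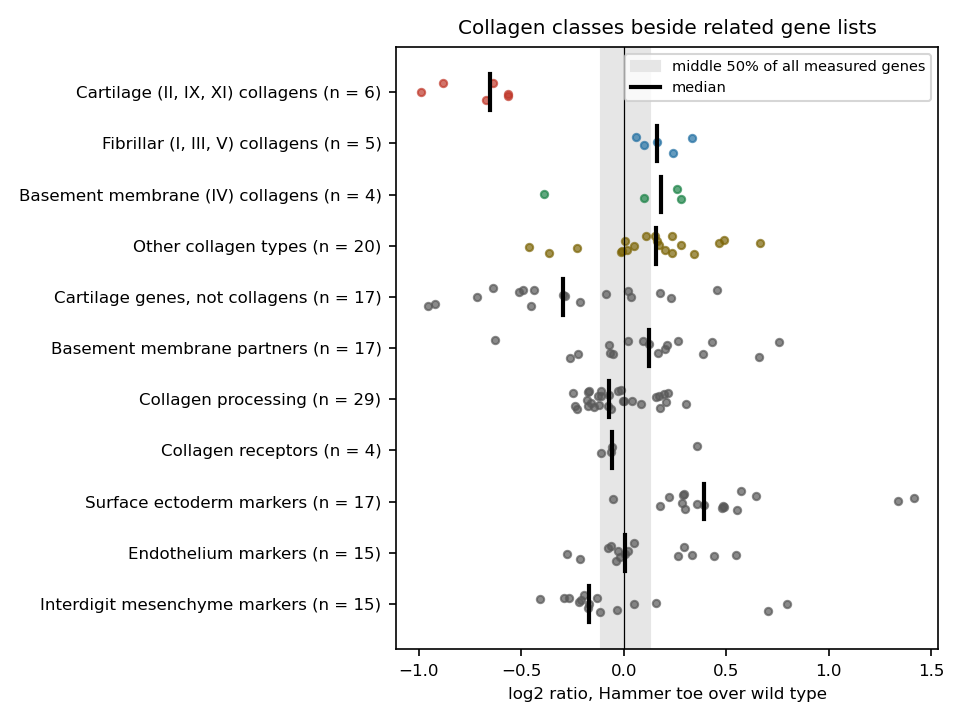
Log2 ratio, Hammer toe over wild type, of each measured gene (points) in the collagen classes and in related lists, with the median of each (black bars); the grey band holds the middle 50% of all measured genes. The cartilage collagens lie from -0.99 to -0.56 and the lowest of the other collagens, Col25a1, is at -0.46.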

How the data were processed

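The deposited table holds 1 intensity per probe set and array for 45101 probe sets. Per the submitters' processing notes, the authors computed these linear intensities with the MAS5 algorithm of Affymetrix Expression Console. MAS5 merges the probes of a set and scales each array, so a shift shared by most transcripts cannot be seen. The 64 control probe sets stayed out. Probe sets were named through GEO's platform annotation, with symbols updated by gene ID from RefSeq's table of GRCm38.p6: 34945 had 1 gene, 932 several and 9160 none. The floor, the median of both arrays' values, log2 ratios and counts were computed in Python 3.11.15 with pandas 2.3.3. The code was tested on simulated data with changes of 2-fold or more planted in genes well above the floor. That test did not cover smaller changes or genes near the floor. With 1 array per genotype, genes were called by size alone (1.5-fold), the number of arrays limits the precision, and no p-value was computed. Every measured collagen is named. Other lists are named at 1.5-fold or more, at most 6 genes, or by their 2 largest ratios, and marker lists by up to 3 bright genes. Further interdigital, muscle, nerve and bone markers, and the dim cartilage genes, were named outside that rule with their values known. The members and lists were chosen with earlier results of these data known. The 10 alternatives and 2 other sizes are in the closing section.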

Additional observations from a re-analysis of the deposited data

How the results depend on the processing

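Over the 10 alternatives in scaling, floor, pseudocount and choice of probe sets, the median log2 ratio of the cartilage collagens ran from -0.65 to -0.61 and none of them was higher in any, though 4 remained measured with the floor at the 75th percentile and 5 without the _x_at, _s_at and _a_at probe sets, which remove Col2a1. The medians of the fibrillar, type IV and other collagens ran from 0.13 to 0.19, 0.15 to 0.26 and 0.14 to 0.17. The number of collagens 1.5-fold or more higher was 1, and it was 4 with the floor at the 25th percentile or with no floor, 0 without the suffixed probe sets, which remove Col17a1, 5 when a ratio 25% above 1 was enough and 0 when 2-fold was asked. The number 1.5-fold or more lower was 4, and it was 6 with the floor at the 25th percentile and 8 with no floor. It was 3 with the floor at the 75th percentile, with the pseudocount or without the suffixed probe sets. At those same other sizes it was 9 and 0. Among the 22 collagens left by a floor at the 75th percentile, 7 were lower and 15 higher. The median of the collagen receptors, -0.06, turned to 0.021 with the floor at the 25th percentile or no floor, 0.0069 with the mean or median over probe sets, and 0.10 without the suffixed probe sets. Single dim genes depend on the floor most: Col14a1 ran from 0.04 to 1.24. No paired analysis was possible because each genotype has 1 array. Signal over background limits Col11a2, Col13a1, Col14a1 and Col22a1, which have 1 array under the floor, and the 7 collagens under it on both arrays.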
